A study of Mus musculus with 59 samples.

Results

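The 10 genes described here encode subunits of voltage-gated calcium channels. They are the pore-forming subunits *Cacna1b*, *Cacna1c*, *Cacna1d*, *Cacna1e*, *Cacna1g*, *Cacna1h*, and *Cacna1i*, the intracellular subunit *Cacnb4*, and the extracellular subunits *Cacna2d2* and *Cacna2d3*. They were chosen by name, with earlier results of these data known, and matched through their Ensembl gene identifiers. They are 10 of the 54232 mouse genes counted, and all 10 passed the filter on low counts in all 5 regions. RNA-seq was carried out on 59 libraries from 5 brain regions (cortex, striatum, hippocampus, cerebellum, and brainstem) of 12 mice aged 10 weeks, 1 library per mouse and region. The labels give the strain as C57BL/6 and the study's methods name C57BL/6J. The 3 groups hold 4 mice each, apart from the brainstem of the second mutant, which has 3 libraries. Values of single mice are always given in 1 order, which is WT-70, WT-77, then WT-220 and WT-221 for WT mice, 154Q-69, 154Q-71, then 154Q-75 and 154Q-76 for the first mutant, and 154Q-AXH-207, 154Q-AXH-209, then 154Q-AXH-217 and 154Q-AXH-218 for the second. The first mutant, *Atxn1* 154Q/2Q (here 154Q), is a knock-in model of spinocerebellar ataxia type 1 in which 1 allele of *Atxn1* carries an expanded CAG repeat at its own locus. The second, *Atxn1* 154Q[V591A;S602D]/2Q (here 154Q-AXH), carries the V591A and S602D substitutions (human numbering) on the expanded allele, made by CRISPR-Cas9 editing, and these disrupt the binding of the expanded ATXN1 to the transcriptional repressor CIC. Both mutant genotypes keep an unexpanded allele and express the expanded protein in every cell that uses *Atxn1*, so neither is a model of 1 cell type, and the founder line of the sequenced 154Q-AXH mice was not given in the sources used here. The comparisons ask which subunits change with the expanded allele, and whether the change differs when the expanded ATXN1 cannot bind CIC.

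Voltage-gated calcium channels open when the membrane depolarizes and let calcium into the cell, where it triggers transmitter release, shapes firing, and signals to the nucleus. The pore-forming subunit sets the channel type: N-type (*Cacna1b*) and R-type (*Cacna1e*) channels act largely at presynaptic terminals and in dendrites, L-type channels (*Cacna1c* and *Cacna1d*) couple activity to gene expression and pacemaking, and T-type channels (*Cacna1g*, *Cacna1h*, and *Cacna1i*) open near rest and drive burst firing. The auxiliary β subunit binds the pore inside the cell, and the α2δ subunits sit on its outer face, and both affect how many channels reach the membrane. Purkinje cells, the output neurons of the cerebellar cortex, rely on calcium channels for their firing, and mutations of *Cacnb4* and *Cacna2d2* in mice are known to cause ataxia and seizures.

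Cortical libraries held from 34.5 to 46.2 M (mega) counted read pairs, striatal libraries 28.1 to 54.7 M, hippocampal libraries 69.5 to 106.9 M, cerebellar libraries 64.4 to 106.2 M, and brainstem libraries 75.4 to 112.3 M. Levels are given as CPM, counts per M counted pairs with TMM-scaled library sizes. Markers of the labelled tissue were present in every region, with summed levels of 5 Purkinje cell genes of 3199 to 4460 CPM in the cerebellum and 6 spiny neuron genes of 503 to 4658 CPM in the striatum. The cortical and striatal libraries overlapped in the sum of 5 cortical projection neuron genes, at 374 to 630 CPM in the cortex and 206 to 574 CPM in the striatum, and the striatal libraries WT-220 and 154Q-AXH-217 held the most spiny neuron transcripts (4658 and 2817 CPM). The hippocampal library of 154Q-76 held 318 CPM of 6 brainstem genes, against 2.10 to 3.86 CPM in the other 154Q hippocampal libraries, together with both *Xist*, the transcript of the inactive X chromosome (190 CPM without TMM scaling), and the Y-linked *Ddx3y* (54.6 CPM). On the same scale the cortical library of WT-221 held 462 CPM of *Xist* and 0.881 CPM of *Ddx3y*, whereas the other 4 libraries with that mouse number held at most 5.64 CPM of *Xist* and at least 68.8 CPM of *Ddx3y*, so its values and its label disagree. Where stated, results that include these 2 libraries are also given without them. The libraries of 154Q-75 and 154Q-AXH-217 held at least 425 CPM of *Xist* in every region sequenced, and 154Q-AXH-217 has no brainstem library. Apart from the cortical library of WT-221, no WT library held as much. File names and labels disagree for the cortical libraries of 154Q-76 and 154Q-AXH-207, and the labels were used. All 154Q mice have numbers in a lower series and all 154Q-AXH mice in a higher one, with WT-70 and WT-77 in the lower and WT-220 and WT-221 in the higher. Both mutant genotypes were compared with the same 4 WT mice, so their changes are not independent of each other.

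In WT mice, each of the 10 subunits had its own order of levels over the 5 regions, and all 10 differed between regions (20 WT libraries, quasi-likelihood F test of edgeR, adjusted by Benjamini-Hochberg), as did 91.6% of all genes tested. The plot of WT levels by region shows the values per kb of exon, the scale on which genes can be set beside each other. Among these 10 subunits *Cacnb4* was the most abundant in 4 of the regions, at 53.6 ± 7.75 CPM per kb in the cerebellum, 29.0 ± 1.12 in the cortex, 27.3 ± 5.10 in the striatum, and 18.9 ± 1.26 in the brainstem (SD, n = 4 mice each). The other subunits of the family were not put on this scale. In the hippocampus *Cacna1e* had the highest level, at 19.0 ± 3.12 CPM per kb, beside 17.7 ± 3.06 for *Cacnb4*, a gap smaller than either SD. The lowest level was that of *Cacna1h* in the cerebellum (0.283 ± 0.0255 CPM per kb), where WT libraries still held 199 to 255 read pairs of it.

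**Figure D1:**
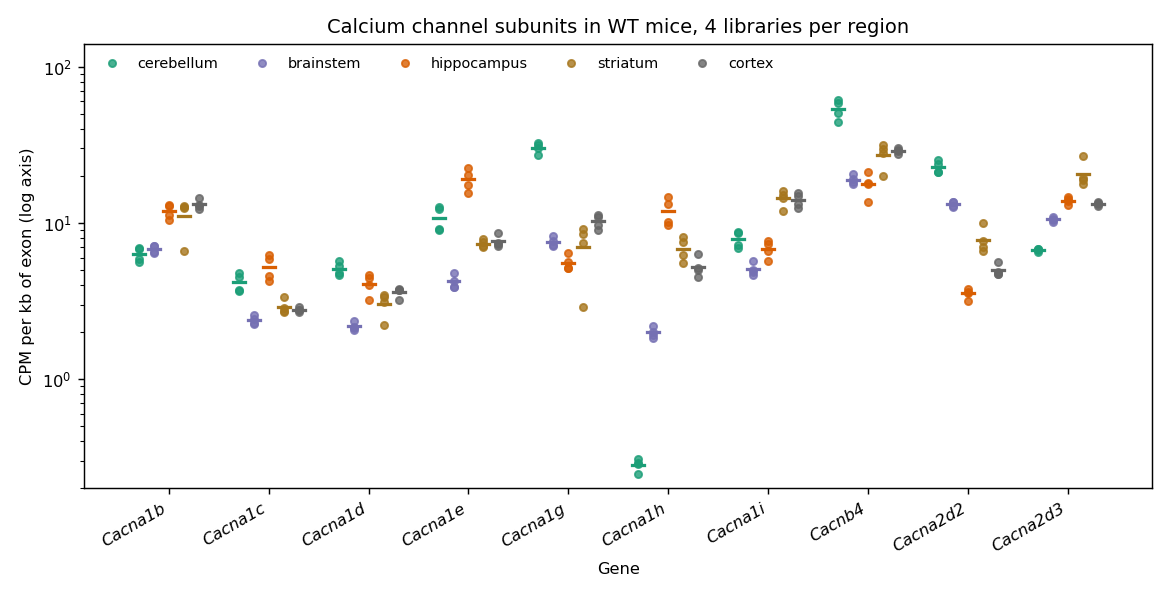
Level of each subunit in the 5 regions of WT mice, in CPM per kb of exon on a log axis. Points are single libraries and dashes are means of 4 mice. *Cacnb4* lies highest in 4 regions, and *Cacna1h* in the cerebellum lies lowest at a mean of 0.283.

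The pore subunits of high-threshold channels were spread over a few fold. Here and below, regions said not to differ missed the threshold, which does not show equal levels. *Cacna1b* was highest in the cortex (131 ± 9.35 CPM), hippocampus (118 ± 12.6), and striatum (111 ± 29.8), which were not separated (adjusted p = 0.485 and 0.549 for neighbours in the order). The striatal mean includes WT-220 at 66.2 CPM, where the other WT libraries held 124 to 127 CPM. *Cacna1b* was lower in the brainstem (67.9 ± 3.70) and cerebellum (62.9 ± 6.57), which did not differ either (adjusted p = 0.445). The hippocampus led for *Cacna1c* (111 ± 19.8 CPM), followed by the cerebellum (88.4 ± 12.1), which was above the striatum (61.6 ± 6.53) by 0.51 on the log2 scale (adjusted p = 3.5e-04). The striatum was not separated from the cortex (58.9 ± 1.76, adjusted p = 0.701), nor the cortex from the brainstem (50.7 ± 2.80, adjusted p = 0.117), but the striatum lay above the brainstem (adjusted p = 0.0316). *Cacna1d* was highest in the cerebellum (64.4 ± 6.32 CPM) and lowest in the brainstem (27.5 ± 1.57), and between them the hippocampus (51.4 ± 8.05) and cortex (45.7 ± 3.51) were not separated (adjusted p = 0.192), nor the cortex and striatum (38.3 ± 7.12, adjusted p = 0.220), while the hippocampus lay above the striatum by 0.43 (adjusted p = 0.00486). *Cacna1e* ran from 480 ± 78.6 CPM in the hippocampus and 272 ± 49.6 in the cerebellum through the cortex (192 ± 16.8) and striatum (186 ± 9.88), which did not differ (adjusted p = 0.898), to 107 ± 10.8 in the brainstem.

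The 3 T-type subunits each had a different leading region. *Cacna1g* was highest in the cerebellum at 308 ± 22.6 CPM, above the cortex (104 ± 10.6) by 1.56 on the log2 scale (adjusted p = 1.4e-06), while the cortex, brainstem (76.8 ± 5.17), striatum (71.2 ± 28.6), and hippocampus (56.5 ± 6.14) were not separated from their neighbours in the order, and the hippocampus lay below the cortex (-0.87, adjusted p = 0.00155). *Cacna1h* had the widest range of the 10, with 117 ± 23.5 CPM in the hippocampus, 67.0 ± 11.6 in the striatum, 51.0 ± 7.53 in the cortex, 19.5 ± 1.52 in the brainstem, and 2.76 ± 0.249 in the cerebellum, a 42.4-fold span in which only the striatum and cortex did not differ (adjusted p = 0.0567). *Cacna1i* was highest in the striatum (142 ± 17.0 CPM) and cortex (139 ± 13.9), which were not separated (adjusted p = 0.822), lower in the cerebellum (77.8 ± 9.03) and hippocampus (67.3 ± 8.27), which were not separated (adjusted p = 0.129), and lowest in the brainstem (45.8 to 56.6 CPM).

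Among the auxiliary subunits, *Cacnb4* was highest in the cerebellum (481 ± 69.5 CPM), ahead of the cortex (260 ± 10.0) and striatum (245 ± 45.7), and then the brainstem (170 ± 11.3) and hippocampus (158 ± 27.4). The cortex and striatum did not differ (adjusted p = 0.762), nor did the brainstem and hippocampus (adjusted p = 0.533). *Cacna2d2* fell at every step, from the cerebellum (182 ± 16.8 CPM) to the brainstem (105 ± 4.09), striatum (62.1 ± 11.9), cortex (39.7 ± 3.39), and hippocampus (28.2 ± 2.07), with each neighbour called. *Cacna2d3* was ordered nearly the other way, with the striatum (181 ± 35.9 CPM) above the hippocampus (121 ± 6.26) and cortex (116 ± 3.33), which did not differ (adjusted p = 0.434), and the brainstem (92.5 ± 2.90) above the cerebellum (58.5 ± 1.25).

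Many genes differ between brain regions, so the number of subunits called in a pair of regions is given beside the share of all genes called. The cerebellum differed from the brainstem in 9 of 10 subunits (65.4% of all genes), from the hippocampus in 9 (63.6%), from the striatum in 10 (71.8%), and from the cortex in 10 (70.3%). The brainstem differed from the hippocampus in 8 (60.7%), from the striatum in 9 (66.1%), and from the cortex in 8 (65.1%), with 7 or 8 of these lower in the brainstem. The hippocampus differed from the striatum in 8 (58.2%) and from the cortex in 7 (55.4%). Striatum and cortex differed in 2, *Cacna2d2* and *Cacna2d3*, both higher in the striatum, where 10.7% of all genes were called. In WT mice the sum of 5 cortical projection neuron genes was 223 to 574 CPM in the striatum and 530 to 630 CPM in the cortex. The WT striatal libraries also ranged from 1405 to 4658 CPM in the spiny neuron sum. The part of tissue content in the likeness of these 2 regions was not tested.

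Between genotypes, the changes that passed the test were modest, at most 0.61 on the log2 scale. In 154Q mice 8 of 50 tests (10 subunits in 5 regions) passed at an adjusted p under 0.05, for 6 subunits, and in 154Q-AXH mice 2 of 50 passed, for 2 subunits. Because the members were chosen with earlier results of these data known, the shares of all genes given beside them are a scale and not a test. The cortex held the most calls. There *Cacna1b* and *Cacna1c* were raised and *Cacna1i* and *Cacna2d3* lowered in 154Q mice, 4 of 10 subunits beside 11.1% of all genes tested, and *Cacna1i* and *Cacna2d3* were lowered in 154Q-AXH mice, 2 of 10 beside 7.15%. In the cerebellum of 154Q mice *Cacna1b* was raised and *Cacna2d2* lowered, 2 of 10 beside 5.22%, and in the hippocampus *Cacna1g* was raised and *Cacna2d3* lowered, 2 of 10 beside 5.91%.

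The other comparisons with WT held no called subunit by edgeR. For 154Q mice these were the brainstem (0.538% of all genes called) and the striatum (5.69%). In the brainstem 2 subunits were at an unadjusted p under 0.05, beside 10.9% of all genes, and DESeq2 called 1, beside 395 genes in all. In the striatum 4 were, beside 23.6%, and DESeq2 called 1, beside 1725 genes. For 154Q-AXH mice they were the cerebellum (2.21% of all genes called), the brainstem (0.0138%), the hippocampus (1.30%), and the striatum (1.35%). At an unadjusted p under 0.05 stood 3 subunits in the 154Q-AXH cerebellum beside 15.1% of all genes, 1 in the brainstem beside 6.73%, 5 in the hippocampus beside 14.9%, and 2 in the striatum beside 12.6%. DESeq2 called 2 subunits in the 154Q-AXH hippocampus, beside 962 genes in all, and 0 in the cerebellum, brainstem, and striatum, beside 1057, 78, and 598 genes. The median log2 change of the 10 subunits in 154Q mice was -0.04 in the cortex, -0.01 in the striatum, 0.13 for the hippocampus, 0.11 for the cerebellum, and -0.09 for the brainstem, where the median of all genes lay between -0.01 and 0.02. In 154Q-AXH mice the medians ran from -0.07 in the cortex to 0.03 in the cerebellum and striatum.

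**Figure D2:**
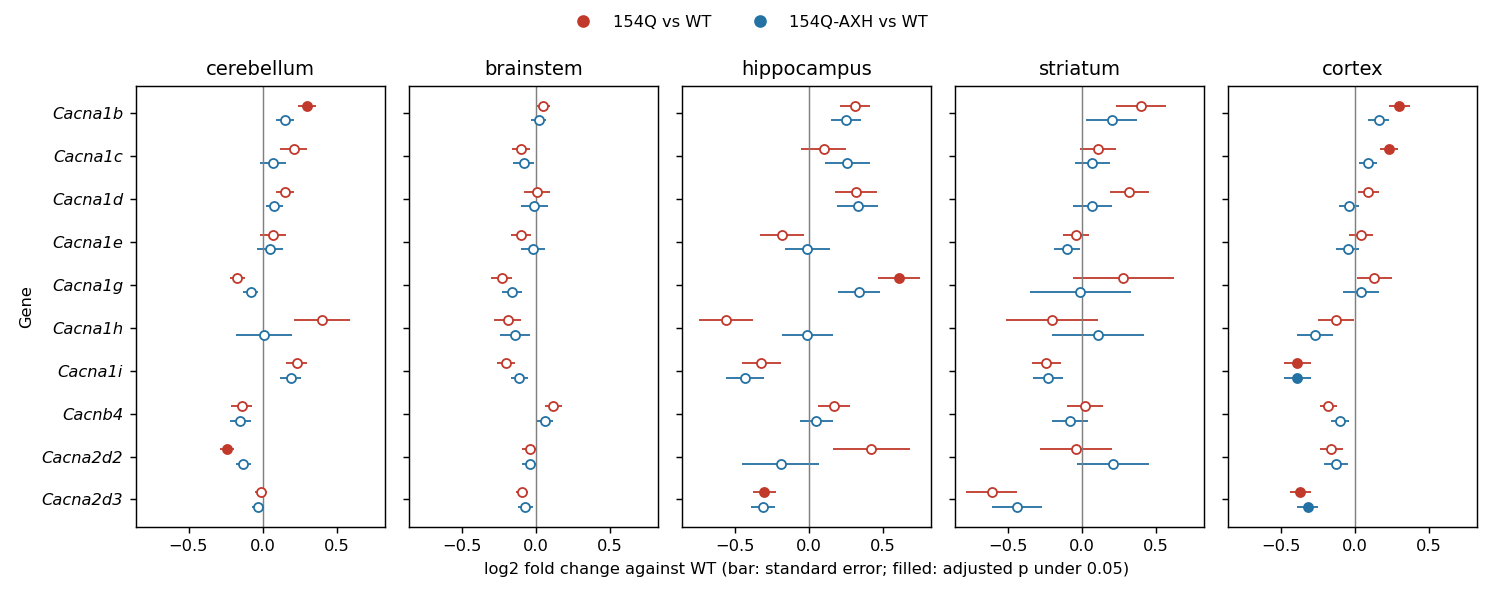
Log2 fold change of each subunit against WT in each region, for 154Q and 154Q-AXH mice, with bars of 1 standard error. Filled points passed at an adjusted p under 0.05 by edgeR, and these are 8 of the 50 values of 154Q mice and 2 of the 50 values of 154Q-AXH mice.

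*Cacna1b* and *Cacna1i* were each called in 2 comparisons with WT and *Cacna2d3* in 3, and the 250 bases before their annotated starts are shown for them, since the first was raised and the other two lowered. The sequences are RefSeq's for GRCm38.p6, on the strand of the gene, at chr2:24763153-24763402 (minus strand), chr15:80286988-80287237 (plus strand), and chr14:29721865-29722114 (minus strand). Capitals mark TGAATGA, the start of TGAATGAA, an octamer that CIC binds, and the GC box GGGCGG, searched on both strands.
Cacna1b: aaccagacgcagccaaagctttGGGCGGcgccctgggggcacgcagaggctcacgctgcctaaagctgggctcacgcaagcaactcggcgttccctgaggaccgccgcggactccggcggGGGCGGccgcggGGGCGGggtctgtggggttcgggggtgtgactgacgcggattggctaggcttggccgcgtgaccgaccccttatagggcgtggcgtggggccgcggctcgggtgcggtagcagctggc
Cacna1i: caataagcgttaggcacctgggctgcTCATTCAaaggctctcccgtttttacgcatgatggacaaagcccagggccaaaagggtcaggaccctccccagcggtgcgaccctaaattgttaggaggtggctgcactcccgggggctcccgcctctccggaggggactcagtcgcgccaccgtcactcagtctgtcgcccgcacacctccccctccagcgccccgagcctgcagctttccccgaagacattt
Cacna2d3: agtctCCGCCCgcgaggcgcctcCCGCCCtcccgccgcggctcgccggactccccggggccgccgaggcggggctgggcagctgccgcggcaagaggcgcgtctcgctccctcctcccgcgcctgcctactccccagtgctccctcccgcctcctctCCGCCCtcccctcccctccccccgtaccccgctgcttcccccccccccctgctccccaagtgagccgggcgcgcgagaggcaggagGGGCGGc
*Cacna1b* held GGGCGG at 228, 130, and 118 bases before the start and *Cacna2d3* held it at 7 bases, with its reverse complement at 245, 227, and 93 bases. *Cacna1i* held no GC box and 1 TGAATGA, on the opposite strand at 224 bases. The GC content was 72.0%, 62.4%, and 80.0%, against a median of 52.4% over 32851 promoters of this length. TGAATGA occurred in 3.14% of these promoters, GGGCGG in 32.7%, and any of the 4 CIC octamers TGAATGAA, TGAATGGA, TCAATGAA, and TCAATGGA in 3.19%. Of the 10 subunits, 8 had an entry, all but *Cacna1g* and *Cacna1h*, and among their 13 annotated promoters 6 held GGGCGG and 0 held a CIC octamer. A match describes letters in a window and is not a measured binding site.

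*Cacna1b*, the pore of N-type channels (chr2:24603887-24763152, GRCm38), had a higher mean in 154Q than in WT mice in all 5 regions, and passed the test in 2 of them. In the cerebellum it had 58.7, 56.0, 69.1, and 67.8 CPM in the WT mice, 71.1, 81.3, 82.4, and 74.2 CPM in the 154Q mice, and 74.3, 70.2, 67.2, and 69.3 CPM in the 154Q-AXH mice. Every 154Q library lay above every WT library, and the 154Q-AXH libraries overlapped both groups. The rise in 154Q mice was to 123% of WT, 0.30 ± 0.06 on the log2 scale (SE; adjusted p = 0.00888 by the quasi-likelihood test of edgeR with Benjamini-Hochberg correction, as for all adjusted p values here unless DESeq2 is named), and 0.41 against WT-70 and WT-77 alone (adjusted p = 0.0148). In 154Q-AXH mice the value was 0.15 ± 0.06 (adjusted p = 0.241).

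In the cortex *Cacna1b* had 144, 130, 122, and 127 CPM in WT mice, 179, 160, 151, and 148 CPM in 154Q mice, and 148, 139, 153, and 141 CPM in 154Q-AXH mice. Again every 154Q library exceeded every WT library, with a mean at 122% of WT (0.30 ± 0.07, adjusted p = 0.00925), and the call was kept in 12 of 12 refits that left out 1 library. Against the WT mice of the same number series the value was 0.23 (adjusted p = 0.318). The 154Q-AXH value was 0.16 ± 0.07 against all WT mice (adjusted p = 0.183) and 0.23 against WT-220 and WT-221 (adjusted p = 0.0360).

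In the hippocampus the *Cacna1b* levels were 111, 104, 130, and 128 CPM in WT, 162, 153, 149, and 113 CPM in 154Q, and 136, 135, 144, and 150 CPM in 154Q-AXH mice. The low 154Q value of 113 belongs to the library of 154Q-76, the one with brainstem transcripts. With it the change was 0.31 ± 0.10 (adjusted p = 0.0921), and without it 0.39 ± 0.07 (adjusted p = 0.00998). All 154Q-AXH libraries lay above the WT libraries, at 0.25 ± 0.10 (adjusted p = 0.260). The striatal values were 124, 127, 66.2, and 126 CPM in WT and 145, 151, 145, and 146 CPM in 154Q mice, and WT-220, which had the most spiny neuron transcripts, was far below the other WT libraries. All 154Q libraries were higher than all WT libraries there (0.40 ± 0.17, adjusted p = 0.175), and against WT-70 and WT-77, whose values were 124 and 127 CPM, the rise was 0.22 (adjusted p = 0.0475). The brainstem value was 0.05 ± 0.05 (adjusted p = 0.760).

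*Cacna1c* (chr6:118587240-119196418), the pore of the most widespread neuronal L-type channel, rose in the cortex of 154Q mice. Its levels were 58.7, 58.6, 57.0, and 61.3 CPM in WT, 73.4, 72.2, 65.9, and 64.1 CPM in 154Q, and 68.4, 59.6, 62.4, and 58.8 CPM in 154Q-AXH mice. The 154Q libraries all lay above the WT libraries, which fell within a range of less than 5 CPM, and the 154Q-AXH libraries spanned both. The change was to 117% of WT (0.23 ± 0.06, adjusted p = 0.0180), and it missed the threshold without WT-220 (adjusted p = 0.0589), without 154Q-69 (adjusted p = 0.0605), and against the WT mice of the same series (0.24, adjusted p = 0.213). In 154Q-AXH cortex the value was 0.09 ± 0.06 (adjusted p = 0.454). In the cerebellum of 154Q mice it was 0.21 ± 0.09 (adjusted p = 0.256), and it was called there with the number series as a covariate. In the hippocampus, striatum, and brainstem of 154Q mice it lay between -0.10 and 0.11.

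*Cacna1d* (chr14:30039939-30491455), the pore of L-type channels that open at lower voltages, passed the test in no comparison with WT. Its largest values were in the hippocampus, where WT mice had 50.8, 40.4, 56.3, and 58.4 CPM, 154Q mice 78.7, 64.1, 60.9, and 48.9 CPM, and 154Q-AXH mice 59.1, 60.6, 62.1, and 78.9 CPM. Every 154Q-AXH library exceeded every WT library (0.33 ± 0.14, adjusted p = 0.300), and among 154Q mice the library of 154Q-76 lay within the WT range (0.32 ± 0.14, adjusted p = 0.224). The change was also 0.32 ± 0.13 in the striatum of 154Q mice (adjusted p = 0.161). In 154Q cerebellum it was 0.15 ± 0.06 (adjusted p = 0.164), and 0.25 ± 0.06 with the number series as a covariate (adjusted p = 0.0199). *Cacna1e* (chr1:154390731-154884501), the pore of R-type channels, lay between -0.18 and 0.07 in 154Q mice and between -0.10 and 0.05 in 154Q-AXH mice over the 5 regions, with standard errors of 0.07 to 0.15. Its cerebellar WT levels differed by series, at 232 and 226 CPM in WT-70 and WT-77 and 320 and 309 CPM in WT-220 and WT-221. Against the first pair the 154Q value was 0.28 (adjusted p = 0.0477), and against all 4 WT mice 0.07 ± 0.09 (adjusted p = 0.779).

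*Cacna1g* (chr11:94408391-94474198), the T-type pore with its highest level in the cerebellum, rose in the hippocampus of 154Q mice, where it is low in WT. The hippocampal levels were 51.9, 52.0, 65.0, and 57.0 CPM in WT, 91.3, 84.0, 74.7, and 88.4 CPM in 154Q, and 77.8, 75.7, 83.2, and 50.8 CPM in 154Q-AXH mice. All 154Q libraries were above all WT libraries, and 3 of the 4 154Q-AXH libraries were too, with 154Q-AXH-218 below them all. The rise in 154Q mice was to 150% of WT, the largest of the called changes (0.61 ± 0.14, adjusted p = 0.0235), and without 154Q-76 it was 0.57 ± 0.15 (adjusted p = 0.0416). It passed in 7 of 12 refits that left out 1 library, with adjusted p values of up to 0.0691 without WT-70, WT-77, WT-221, 154Q-69, or 154Q-71. In 154Q-AXH mice the value was 0.34 ± 0.14 (adjusted p = 0.260), and 0.49 ± 0.09 without 154Q-AXH-218 (adjusted p = 0.0290), whose library also stood apart in the sum of 5 hippocampal genes, at 1090 CPM against 514 to 641 CPM in the other 154Q-AXH libraries. The 154Q-AXH value passed in only 1 of 12 such refits, with adjusted p values of up to 0.516.

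In the cerebellum, *Cacna1g* levels were 321, 277, 305, and 328 CPM in WT, 259, 291, 276, and 262 CPM in 154Q, and 284, 289, 294, and 302 CPM in 154Q-AXH mice. WT-77 was the only WT library inside the 154Q range. The 154Q value was -0.17 ± 0.05 (adjusted p = 0.0614), DESeq2 called it (adjusted p = 0.0259), and without WT-77 it was -0.22 (adjusted p = 0.0114). By edgeR it passed in 2 of 12 refits that left out 1 library, with adjusted p values of up to 0.174. In the brainstem the value was -0.23 ± 0.07 (adjusted p = 0.209) and in the striatum 0.28 ± 0.34, where WT-220 and 154Q-AXH-217 had 29.5 and 32.0 CPM and all other libraries 74.4 to 108 CPM.

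*Cacna1h* (chr17:25374285-25433783), the T-type pore most abundant in the hippocampus, had 94.8, 100, 130, and 144 CPM there in WT, 86.9, 85.0, 79.5, and 61.8 CPM in 154Q, and 95.7, 111, 98.1, and 163 CPM in 154Q-AXH mice. The 154Q libraries were below all libraries of the other genotypes, and the lowest was 154Q-76. The 154Q value against WT was 66.9% of the WT mean (-0.56 ± 0.18, adjusted p = 0.0826), and -0.47 ± 0.18 without 154Q-76 (adjusted p = 0.147). DESeq2 called it (adjusted p = 0.0192), as did edgeR without 154Q-AXH-218 (adjusted p = 0.0262), the library with 163 CPM. By edgeR it passed in only 1 of 12 refits that left out 1 library, with adjusted p values of up to 0.193. The WT levels differed by series, at 94.8 and 100 CPM in WT-70 and WT-77 and 130 and 144 CPM in WT-220 and WT-221. The change was not called with the number series as a covariate or against WT-70 and WT-77 alone. In 154Q-AXH mice the value was -0.01 ± 0.17. In the other 4 regions the values of both genotypes lay between -0.27 and 0.40, with no adjusted p under 0.232.

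*Cacna1i* (chr15:80287238-80398279), the T-type pore known from thalamic and cortical neurons, was lowered in the cortex of both mutant genotypes. Its cortical levels were 146, 123, 131, and 154 CPM in WT, 91.9, 108, 106, and 116 CPM in 154Q, and 92.9, 101, 118, and 110 CPM in 154Q-AXH mice. No mutant library reached the lowest WT library, and the 2 mutant groups covered nearly the same range. The level was 75.9% of WT in 154Q mice (-0.39 ± 0.09, adjusted p = 0.00853) and 76.2% in 154Q-AXH mice (-0.39 ± 0.09, adjusted p = 0.0117), and both calls were kept in 12 of 12 refits without 1 library. Without the cortical library of WT-221 both values were smaller, -0.34 (adjusted p = 0.0349) and -0.33 (adjusted p = 0.0475). Against the WT mice of the same series the 154Q value was -0.35 (adjusted p = 0.137) and the 154Q-AXH value -0.42 (adjusted p = 0.0252).

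The direction of *Cacna1i* was not the same in every region. In the cerebellum the levels were 71.8, 68.4, 86.0, and 85.0 CPM in WT, 88.2, 84.7, 101, and 90.1 CPM in 154Q, and 90.9, 88.9, 91.6, and 85.9 CPM in 154Q-AXH mice. Both mutant groups sat near or above the upper WT values, with a 154Q value of 0.23 ± 0.07 (adjusted p = 0.0571), 0.35 against WT-70 and WT-77 (adjusted p = 0.0398), and a 154Q-AXH value of 0.19 ± 0.07 (adjusted p = 0.160). DESeq2 called the 154Q value (adjusted p = 0.0164). In the brainstem all 154Q libraries (42.0 to 45.1 CPM) lay below all WT libraries (45.8 to 56.6 CPM), at -0.20 ± 0.06 (adjusted p = 0.168), and DESeq2 called it (adjusted p = 0.0387). The hippocampal values were -0.32 ± 0.13 in 154Q (adjusted p = 0.174) and -0.43 ± 0.13 in 154Q-AXH mice (adjusted p = 0.130), and DESeq2 called that of 154Q-AXH mice. In the same order the striatal values were -0.24 ± 0.10 (adjusted p = 0.191) and -0.23 ± 0.10 (adjusted p = 0.385).

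*Cacnb4* (chr2:52428320-52676831), the β subunit, passed the test in no comparison with WT. Its cortical levels were 259, 247, 263, and 272 CPM in WT, 213, 216, 245, and 239 CPM in 154Q, and 232, 236, 268, and 233 CPM in 154Q-AXH mice. The 154Q libraries all lay below the WT libraries (-0.18 ± 0.06, adjusted p = 0.0593), and DESeq2 called the change (adjusted p = 0.0330). In the cerebellum WT mice had 456, 394, 526, and 547 CPM, 154Q mice 430, 444, 450, and 420 CPM, and 154Q-AXH mice 444, 445, 415, and 440 CPM. The WT libraries differed by series, and the result followed the WT mice chosen: against all 4 the 154Q-AXH value was -0.15 ± 0.07 (adjusted p = 0.331), and against WT-220 and WT-221 it was -0.28 (adjusted p = 7.4e-04). The antisense transcript *A430018G15Rik* shares 15.99% of the exon bases of *Cacnb4*. In counts without strand, read pairs over these shared bases are ambiguous and are counted for neither gene.

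*Cacna2d2* (chr9:107399612-107529343), the α2δ subunit that Purkinje cells use, was lowered in the cerebellum of 154Q mice. Its levels were 169, 167, 190, and 202 CPM in WT, 144, 156, 159, and 156 CPM in 154Q, and 165, 165, 164, and 172 CPM in 154Q-AXH mice. The 154Q libraries were below those of both other genotypes. Among the 154Q-AXH libraries, 154Q-AXH-218 lay within the WT range and the others lay just below it. The level was 84.6% of WT in 154Q mice (-0.24 ± 0.05, adjusted p = 0.0113), a call kept in 12 of 12 refits without 1 library, and the 154Q-AXH value was -0.13 ± 0.05 (adjusted p = 0.204). Within the number series the 2 genotypes changed places: the 154Q value against WT-70 and WT-77 was -0.15 (adjusted p = 0.189), and the 154Q-AXH value against WT-220 and WT-221 was -0.22 (adjusted p = 0.00588). The summed level of 5 Purkinje cell genes was 4093 to 4460 CPM in WT, 3199 to 3406 CPM in 154Q, and 3516 to 3769 CPM in 154Q-AXH cerebella, none of them at 0 in any library, with 4 of 5 lowered in 154Q and 2 of 5 in 154Q-AXH mice, and their part in the result was not tested. In tissue, fewer cells of a type and less RNA per cell cannot be told apart.

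In the hippocampus *Cacna2d2* was at 32.7, 28.7, and 24.8 CPM in 3 of the 154Q mice and at 61.8 CPM in 154Q-76. WT libraries ranged from 25.3 to 30.2 CPM, so the mean of 154Q mice (0.42 ± 0.26, adjusted p = 0.380) rests on the library with brainstem transcripts, a tissue in which WT mice had 105 ± 4.09 CPM. In the striatum the values of WT-220 and 154Q-AXH-217, 79.2 and 117 CPM, were the highest of 12, and the other libraries held 44.0 to 72.0 CPM.

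**Figure D3:**
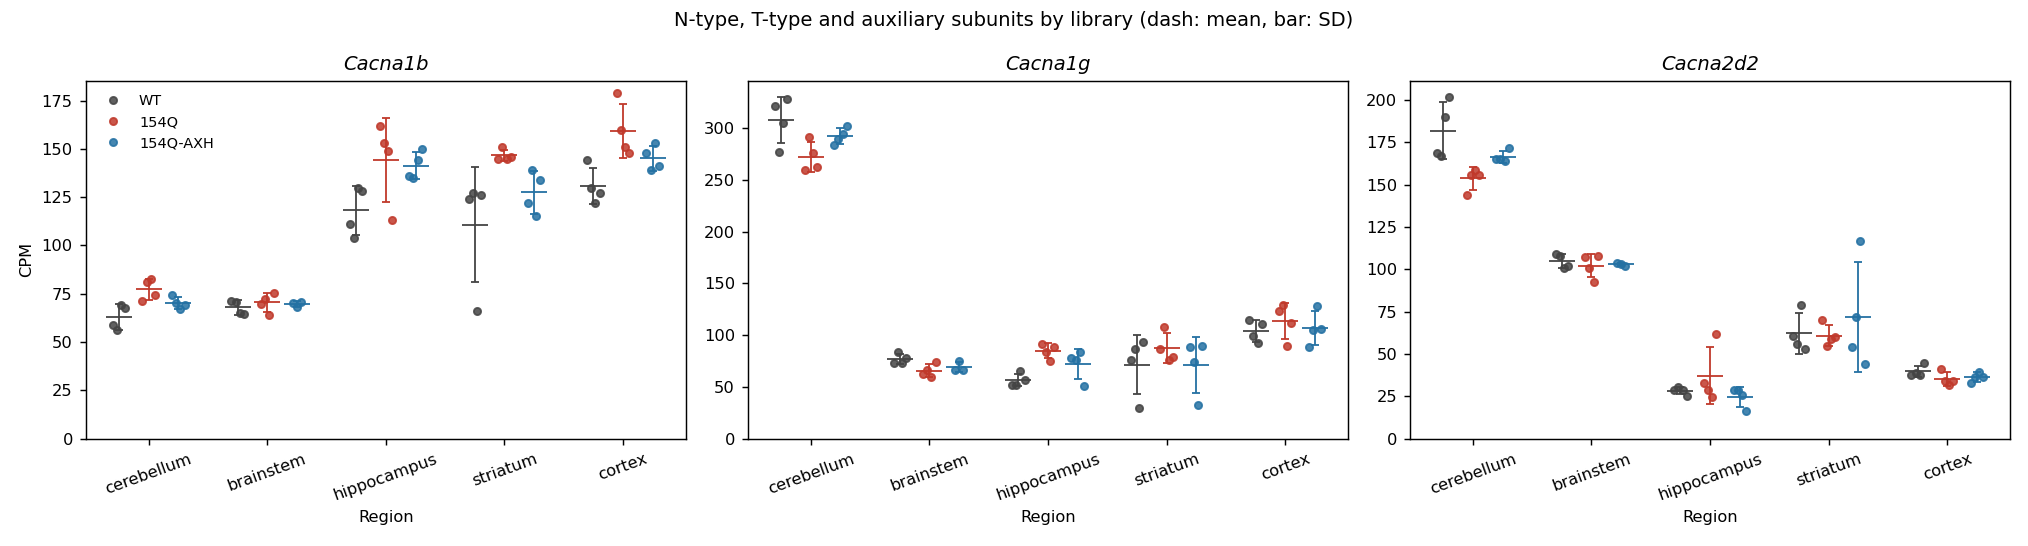
CPM of *Cacna1b*, *Cacna1g*, and *Cacna2d2* in the 5 regions by genotype, with 1 point per mouse, a dash for the mean, and a bar for the SD (n = 4 mice per group, 3 in the 154Q-AXH brainstem). In the cerebellum the 154Q libraries of *Cacna1b* lie at 71.1 CPM or more and those of *Cacna2d2* at 159 CPM or less, outside the WT range in both, and in the hippocampus 154Q-AXH-218 is the low point of *Cacna1g* at 50.8 CPM.

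*Cacna2d3* (chr14:28904943-29721864), the second α2δ subunit, was lowered in the cortex of both mutant genotypes and in the hippocampus of 154Q mice. In the cortex its levels were 111, 119, 117, and 115 CPM in WT, 75.1, 87.8, 103, and 91.4 CPM in 154Q, and 92.5, 83.6, 94.7, and 99.1 CPM in 154Q-AXH mice. No mutant library reached the WT range. The mean was 89.2 CPM in 154Q mice against 116 CPM in WT (-0.37 ± 0.07, adjusted p = 0.00465), and 79.8% of WT in 154Q-AXH mice (-0.32 ± 0.07, adjusted p = 0.0151). Without the cortical library of WT-221 the values were -0.37 (adjusted p = 0.0150) and -0.32 (adjusted p = 0.0411). The 154Q-AXH call was lost without 154Q-AXH-209 (adjusted p = 0.0575) and without both cortical libraries whose names disagree (adjusted p = 0.0556), and the 154Q value against WT-70 and WT-77 was -0.37 (adjusted p = 0.143).

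The hippocampal levels of *Cacna2d3* were 121, 113, 128, and 124 CPM in WT, 87.7, 100, 110, and 91.7 CPM in 154Q, and 102, 104, 101, and 87.2 CPM in 154Q-AXH mice, and here too no mutant library reached the WT range. The 154Q value was -0.30 ± 0.08 (adjusted p = 0.0449) and the 154Q-AXH value -0.31 ± 0.08 (adjusted p = 0.0785), on either side of the threshold with nearly the same size. The 154Q call was kept in 4 of 12 refits without 1 library, and was lost without WT-70, WT-220, WT-221, 154Q-69, 154Q-71, 154Q-76, 154Q-AXH-209, or 154Q-AXH-217, with adjusted p values of 0.0553 to 0.109. In the striatum WT mice had 168, 165, 234, and 155 CPM, 154Q mice 120, 107, 116, and 134 CPM, and 154Q-AXH mice 103, 133, 184, and 109 CPM. The 154Q libraries were below the WT libraries (-0.61 ± 0.17, adjusted p = 0.0613), and the values of WT-220 and 154Q-AXH-217 were the highest of their groups. Without 154Q-AXH-217 the 154Q value was -0.61 (adjusted p = 0.0150) and the 154Q-AXH value -0.64 (adjusted p = 0.0467), where it was -0.44 ± 0.17 with it. Each striatal value passed in only 1 of 12 refits that left out 1 library. Their adjusted p values reached 0.154 in 154Q and 0.544 in 154Q-AXH mice, and the values nearest 0 were -0.47 and -0.30. In the cerebellum the groups lay within 54.4 to 61.7 CPM (-0.01 ± 0.04 and -0.03 ± 0.04).

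**Figure D4:**
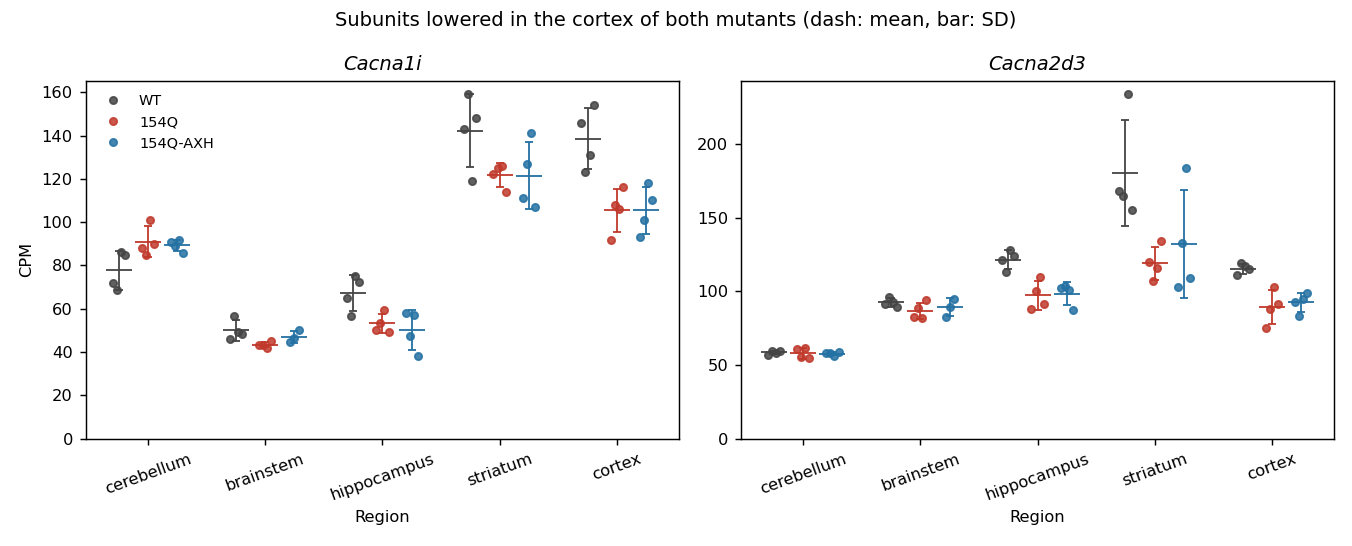
CPM of *Cacna1i* and *Cacna2d3* in the 5 regions by genotype, with 1 point per mouse, a dash for the mean, and a bar for the SD (n = 4 mice per group, 3 in the 154Q-AXH brainstem). In the cortex all mutant libraries lie below the lowest WT library, which is at 123 CPM for *Cacna1i* and 111 CPM for *Cacna2d3*.

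Markers of several cell types moved with the cortical changes. The summed level of 5 general neuron genes was 6050 to 6562 CPM in WT, 4874 to 5755 CPM in 154Q, and 5309 to 6205 CPM in 154Q-AXH cortex, with 3 of 5 genes lowered and 1 raised in 154Q and 1 lowered and 1 raised in 154Q-AXH mice. The sum of 5 cortical projection neuron genes was 530 to 630, 374 to 456, and 378 to 457 CPM (1 gene raised and 1 lowered in 154Q mice, 2 lowered in 154Q-AXH mice), and that of 5 interneuron genes 779 to 855, 555 to 630, and 620 to 640 CPM, with 3 of 5 interneuron genes lowered in both genotypes. The sum of 4 astrocyte genes was 957 to 1018, 758 to 921, and 794 to 936 CPM, with 3 lowered in 154Q and 0 called in 154Q-AXH mice, and that of 6 thalamus genes 47.6 to 52.9, 33.7 to 43.3, and 33.8 to 41.9 CPM, with 2 lowered in each genotype. In the hippocampus the interneuron sum was 716 to 747, 501 to 567, and 455 to 586 CPM (2 of 5 genes lowered in 154Q and 1 in 154Q-AXH mice), and in the striatum the spiny neuron sum was 1405 to 4658, 571 to 997, and 503 to 2817 CPM, with 0 of 6 genes called in either genotype. In 154Q hippocampus 2 of 6 thalamus and 1 of 5 hippocampal genes were lowered. Of 5 general neuron genes 1 was raised and 1 lowered there. In the hippocampus 1 of 5 Purkinje cell genes was lowered in each mutant. In 154Q striatum 2 of 6 thalamus genes and 1 astrocyte, cortical projection neuron, and endothelium gene each were lowered. Of 5 striatal interneuron genes 1 was lowered in each mutant. Their sum was 900 to 1229 CPM in WT, 635 to 859 in 154Q, and 696 to 1125 in 154Q-AXH. None of these genes was at 0 in these regions. The part of cell composition in the changes of *Cacna1i* and *Cacna2d3* was not tested. Its part in the rise of *Cacna1b* and *Cacna1c* in 154Q cortex was not tested either.

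Between the 2 mutant genotypes no subunit differed at the adjusted threshold, by the main edgeR fit or DESeq2, in any region. With the number series as a covariate edgeR called 1 subunit in the cerebellum, lower in 154Q-AXH mice, beside 80 genes in all. In the main fit the share of all genes called was 0.0335% in the cerebellum and 0.00% in the brainstem, hippocampus, striatum, and cortex, so few genes passed at all. At an unadjusted p under 0.05 there was 1 subunit in the cerebellum (beside 7.60% of all genes), 2 in the hippocampus (11.0%), 1 in the cortex (6.67%), and 0 in the brainstem (5.35%) and striatum (3.26%). DESeq2 called 124, 46, 0, 33, and 0 genes in all in that order. *Cacna1h* had the lowest of these, higher in 154Q-AXH than in 154Q hippocampus by 0.55 ± 0.18 (adjusted p = 0.422 by edgeR), with 4 of 4 154Q-AXH libraries above all 154Q libraries. The other values were -0.61 ± 0.26 for *Cacna2d2* in the hippocampus (adjusted p = 0.433), which rests on 154Q-76, -0.15 ± 0.06 for *Cacna1b* in the cerebellum (adjusted p = 0.578), and -0.15 ± 0.06 for *Cacna1c* in the cortex (adjusted p = 0.744). For *Cacna1i* and *Cacna2d3* in the cortex the difference was 0.00 ± 0.09 and 0.05 ± 0.07. A difference that misses the threshold does not show that the genotypes are alike, and the 2 genotypes also differ in their number series.

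Whether the change in mutant mice differed between regions was tested as an interaction in 1 model of the WT libraries and those of a mutant genotype over all 5 regions. With 154Q mice 2 of 10 subunits passed, beside 5.71% of all genes tested, and they were *Cacna1i* (F = 7.46, adjusted p = 0.00841) and *Cacna2d3* (F = 6.80, adjusted p = 0.0133, edgeR quasi-likelihood F test). *Cacna1i* had values of 0.23 in the cerebellum and -0.20 to -0.39 in the other 4 regions, and *Cacna2d3* had -0.01 in the cerebellum, -0.09 in the brainstem, and -0.30 to -0.61 in the forebrain. Without the hippocampal library of 154Q-76 and the cortical library of WT-221 both were kept (adjusted p = 0.0173 and 0.0179). The call of *Cacna1i* was lost without WT-70 or WT-221, and that of *Cacna2d3* without WT-220 or 154Q-71. *Cacna1g*, raised in the hippocampus and at -0.17 and -0.23 in the cerebellum and brainstem, had F = 4.06 (adjusted p = 0.0952). With 154Q-AXH mice no subunit passed, beside 1.33% of all genes, and 1 was at an unadjusted p under 0.05, *Cacna1i* (F = 5.09, adjusted p = 0.117 by edgeR).

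The family has 16 further subunits, of which 14 to 16 were tested in a region. In 154Q mice 2 were raised and 2 lowered in the cerebellum (5.22% of all genes called), 3 lowered in the hippocampus (5.91%), 2 lowered in the striatum (5.69%), 2 lowered in the cortex (11.1%), and 0 called in the brainstem (0.538%). In the cerebellum *Cacna2d1*, another α2δ subunit, was raised by 0.40 ± 0.08 (adjusted p = 0.00683) while *Cacna2d2* was lowered, and it was raised in 154Q-AXH mice as well (0.35 ± 0.08, adjusted p = 0.0334). *Cacna1s*, the L-type pore of skeletal muscle, was lowered in both (-1.33 ± 0.19, adjusted p = 5.7e-04, and -1.10 ± 0.18, adjusted p = 0.00517). The β subunit *Cacnb2* (-0.29 ± 0.06) was lowered and the AMPA receptor-associated *Cacng8* (0.37 ± 0.09) raised in 154Q cerebellum. *Cacnb1*, a β subunit, was lowered in 154Q hippocampus (-0.41 ± 0.10), striatum (-0.45 ± 0.07), and cortex (-0.24 ± 0.05), and in 154Q-AXH striatum (-0.38 ± 0.07) and cortex (-0.27 ± 0.05). *Cacng3*, also an AMPA receptor-associated protein, was lowered in 154Q striatum (-0.42 ± 0.09) and in the cortex of both genotypes (-0.30 ± 0.05 each), and *Cacng6* (-1.45 ± 0.22) and *Cacng8* (-0.54 ± 0.12) in 154Q hippocampus. The median log2 change of these subunits in 154Q mice was -0.15 in the cortex, -0.28 in the striatum, -0.05 for the hippocampus, 0.00 for the cerebellum, and -0.04 for the brainstem.

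A list of 12 genes held proteins that bind or regulate the channels and also the sodium leak channel *Nalcn*, and all were tested in every region. In 154Q mice, beside the same shares of all genes, 1 was raised and 2 lowered in the cerebellum (5.22%), 2 lowered in the brainstem (0.538%), 1 raised in the hippocampus (5.91%), 0 called in the striatum (5.69%), and 1 raised and 4 lowered in the cortex (11.1%). *Stac*, an adaptor of L-type channels, was lowered in 154Q cerebellum (-0.63 ± 0.07, adjusted p = 5.5e-05) and brainstem (-0.84 ± 0.12, adjusted p = 0.0103). *Nalcn*, itself a channel, was the raised gene in 154Q cerebellum (0.20 ± 0.04) and hippocampus (0.33 ± 0.06). In 154Q cortex *Rims1*, which tethers channels at release sites, was lowered (-0.46 ± 0.07, adjusted p = 7.7e-04), and *Rem2*, a small GTPase that inhibits the channels, was raised (0.85 ± 0.14, adjusted p = 0.00108). In 154Q-AXH mice 1 was raised and 2 lowered in the cortex (7.15% of all genes) and 1 lowered in the cerebellum (2.21%), with no call elsewhere.

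Among 28 genes of calcium stores, pumps, exchangers, entry, and buffers, the 154Q calls were 1 raised and 6 lowered in the cerebellum (5.22% of all genes), 1 lowered in the brainstem (0.538%), 1 raised and 5 lowered in the hippocampus (5.91%), 1 raised and 4 lowered in the striatum (5.69%), and 1 raised and 6 lowered in the cortex (11.1%). In the cerebellum the calcium buffer *Calb2* was raised (0.51 ± 0.05, adjusted p = 1.5e-05) and *Calb1*, the buffer of Purkinje cells and one of their markers, was lowered (-0.36 ± 0.03, adjusted p = 2.1e-05). The ryanodine receptor *Ryr1* was lowered in the striatum (-2.03 ± 0.21, adjusted p = 2.1e-04), where the spiny neuron sum was 571 to 997 CPM against 1405 to 4658 CPM in WT with 0 of 6 genes called, and its part in the result was not tested. *Orai3* (-0.58 ± 0.10, adjusted p = 0.00582), a store-operated entry channel, was lowered in the hippocampus. The median log2 change of the 28 genes was -0.07, -0.01, -0.04, -0.12, and -0.12 in the order cerebellum, brainstem, hippocampus, striatum, and cortex. In 154Q-AXH mice 1 was raised and 3 lowered in the cerebellum (2.21%), 1 lowered in the hippocampus (1.30%), 2 lowered in the striatum (1.35%), 1 raised and 4 lowered in the cortex (7.15%), and 0 called in the brainstem (0.0138%).

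Finally, the pattern of each subunit over the 59 libraries was set beside that of every other gene among the 24290 that passed the filter, by Pearson's correlation of log2 CPM. The libraries share regions, mice, and depth, so these values describe regional patterns. *Cacna1c* and *Cacna1e* were near each other (r = 0.96). The 2 genes nearest to each subunit were *Csmd2* (0.97) and *Arsb* (0.96) for *Cacna1b*, *Cacna1e* (0.96) and *Csnk1g1* (0.94) for *Cacna1c*, *Ncoa6* and *Ncor1* (0.97 each) for *Cacna1d*, and *A330008L17Rik* (0.97) and *Cacna1c* (0.96) for *Cacna1e*. Those of the T-type subunits were *Boc* and *Ablim1* (0.96 each) for *Cacna1g*, *Lmo3* (0.99) and *Bcl11b* (0.98) for *Cacna1h*, and *Prkcz* (0.96) and *Slc35a4* (0.94) for *Cacna1i*. The nearest for the auxiliary subunits were *Exph5* (0.98) and *Mtus2* (0.97) for *Cacnb4*, *Pld5* and *Gm14204* (0.98 each) for *Cacna2d2*, and *Inf2* (0.95) and *Shb* (0.94) for *Cacna2d3*.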

How the data were processed

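Gene expression was measured by polyadenylated RNA-seq in 59 libraries. Per the labels and the study's methods, reads in pairs were trimmed by the authors with Trimmomatic 0.36 and aligned with STAR 2.7.2d (genome GRCm38.p6, GENCODE M18), and they deposited whole counts of read pairs per gene without normalization. Counts without regard to strand were used, in which read pairs over exons shared with an antisense gene are ambiguous and counted for neither gene. Summary lines and 1 human transgene line were left out.

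Genes were kept in each region by filterByExpr with genotype as the group and scaled by TMM, and the 3 genotypes were fitted in 1 model by the quasi-likelihood test of edgeR 4.0.16 in R 4.3.3. p values were adjusted by Benjamini-Hochberg over all genes tested, and a gene was called at an adjusted p under 0.05. In comparisons of genotypes within a region the mouse was the unit of replication, and groups came from the sample labels. The interaction tests and the tests between regions in WT mice held several libraries per mouse, with no block for the mouse in the main fit. The main test was tested on simulated data with known changes. Log2 CPM used a prior count of 2. Intervals are SD or SE over mice. Depth was at least 28.1 M counted pairs in every library, and the lowest count behind a subunit value was 199, for *Cacna1h* in the cerebellum.

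The genes named are the 10 subunits, further subunits called against WT, up to 3 called genes with the lowest adjusted p in 154Q mice for each region of the other lists, and the 2 nearest genes by correlation. The members and lists were chosen with earlier results of these data known. Promoters were RefSeq's for GRCm38.p6. No protein sequences were used here. Alternatives were DESeq2 1.42.0, its size factors in edgeR, no filter, only the 2 genotypes compared, number series or *Ttr* level as a covariate, WT mice of the same series, 1 strand, an exchange or removal of the 2 cortical libraries named differently in files and labels, and leaving out each library in turn. Some further genes are not reported here.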

Additional observations from a re-analysis of the deposited data

Results flagged for a closer look

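In groups of 4 mice, 10 of 140 groups of subunit values held a library farther from its neighbour than Dixon's 95% limit allows, where chance gives about 1 in 20 groups. In the striatum *Cacna1b* was at 66.2 CPM in WT-220 (others 124 to 127) and 151 CPM in 154Q-71 (others 145 to 146), *Cacna2d3* at 234 CPM in WT-220 (others 155 to 168), and *Cacnb4* at 216 CPM in 154Q-AXH-217 (others 236 to 240). In the cortex *Cacna1d* was at 40.4 CPM in WT-220 (others 47.3 to 47.7), *Cacnb4* at 268 CPM in 154Q-AXH-217 (others 232 to 236), and *Cacna2d2* at 44.7 CPM in WT-221 (others 37.6 to 38.7). The cerebellum held *Cacnb4* at 415 CPM in 154Q-AXH-217 (others 440 to 445) and *Cacna2d2* at 172 CPM in 154Q-AXH-218 (others 164 to 165), and the hippocampus *Cacna1d* at 78.9 CPM in 154Q-AXH-218 (others 59.1 to 62.1).

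The change in 154Q mice differed between regions for *Cacna1i* (F = 7.46, adjusted p = 0.00841) and *Cacna2d3* (F = 6.80, adjusted p = 0.0133, edgeR quasi-likelihood interaction test).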

How the results depend on the processing

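Of 2020 values of single subunits under other settings, 1882 kept their side of the threshold (called values also their direction, others within 1 standard error), 64 not called moved by more than their standard error, 32 lost and 42 gained a call, and 0 that were called in either fit turned sign. Values not called in either turned sign in 74 cases, from at most 0.21 to at most 0.35 in size, such as *Cacnb4* in 154Q cerebellum (-0.14, and 0.02 with the number series as a covariate). The number of subunits called changed by more than 1.5 times as follows. In the cerebellum 4 were called in 154Q mice by DESeq2 (1718 genes in all, against 1089) and 5 (all raised) with the number series as a covariate (959 genes), where 154Q-AXH mice had 2 (1475 genes, against 462) and the comparison of the mutants 1 (80 genes, against 7), and against WT mice of the same series 154Q-AXH mice had 2 (2468 genes). DESeq2 called 1 in 154Q brainstem (395 genes, against 117), 2 in 154Q-AXH hippocampus (962 genes, against 279), and 1 in 154Q striatum (1725 genes, against 1047). In 154Q hippocampus 1 was called with no filter (1024 genes, against 1268) and with only the 2 genotypes compared (841 genes). It was also 1 with the series (675 genes) or *Ttr* (1174 genes) as a covariate and against WT mice of the same series (73 genes). In 154Q striatum 1 was called with only 2 genotypes (973 genes, against 1047) and 3 against WT mice of the same series (1134 genes). In the cortex 1 was called in both genotypes with the series as a covariate (797 genes in 154Q mice, against 2066, and 571 in 154Q-AXH mice, against 1330). In 154Q cortex 0 were called against WT mice of the same series (328 genes), and in 154Q-AXH cortex 1 without the cortical pair (800 genes). Smaller shifts were 3 calls in place of 2 in 154Q cerebellum with no filter (959 genes), *Ttr* (1330), 1 strand (954), and, with 3 raised and 0 lowered, WT mice of the same series (372). There were also 3 in place of 2 in 154Q hippocampus by DESeq2 (2153 genes) and in 154Q-AXH cortex against WT mice of the same series (980). In 154Q cortex 5 were called in place of 4 by DESeq2 (2505 genes), with 1 strand (1772), and with the pair's labels exchanged (2333). Fits against WT mice of the same series hold 2 WT mice in place of 4, and the cause of the other shifts was not tested.

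Leaving out 1 library gave 2 to 4 calls in 154Q cerebellum, 0 to 3 in 154Q hippocampus, 0 to 1 in 154Q striatum, and 3 to 5 in 154Q cortex, and 0 to 1, 0 to 1, 0 to 1, and 1 to 2 in 154Q-AXH mice in the same order. The interaction gave 1 to 2 and 0 to 1. Libraries with the same mouse number shared little of their deviation from the group means. Over 116 such pairs the correlation of deviations was -0.22 to 0.32 (median 0.02), with 28 above 0.1. With the mouse as a replicate block the interaction still called 2 subunits in 154Q mice (adjusted p = 0.0108 and 0.0112) and 80 of 100 regional differences in WT mice, as without it. The fewest read pairs were those of *Cacna1h* in the cerebellum (199 to 528).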
